A study of Mus musculus with 4 samples.

Results

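Zfp36, Zfp36l1 and Zfp36l2 encode the mouse tristetraprolin (TTP) family of RNA-binding proteins, and their promoters were followed here in a map of chromatin contacts made in bone marrow-derived macrophages (BMDMs). The contacts are 1 list of 237102 significant interactions, each a pair of 5-kb bins of the same autosome. An interaction was assigned to a member where either bin held a transcription start site (TSS) of one of its protein-coding transcripts, and 118 interactions met this rule, 14 at Zfp36, 103 at Zfp36l1 and 1 at Zfp36l2. The 3 genes are 3 of 20720 protein-coding autosomal genes counted in this way.

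The cells came from young adult female C57BL/6J mice and were grown for 7 days in medium with M-CSF, the growth factor that turns bone marrow cells into macrophages. There were 4 samples, 2 left untreated (basal) and 2 given 20 ng/mL of mouse interleukin-4 (IL-4), which drives alternative macrophage activation, for 24 h. HiChIP ligates DNA ends that lie close together in fixed nuclei and keeps the pairs bound by a chosen antibody, here one to H3K4me3, a mark that histones carry at active promoters. The list was called on the reads of all 4 samples merged, so each interaction has 1 observed count of paired reads and no replicate error. No test was made, and the basal and IL-4 conditions could not be set against each other here. By its methods, the study compared the conditions on counts of each sample and found no significantly different interaction. The depth of each sample is unknown.

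The TTP family proteins share a pair of CCCH zinc fingers that bind AU-rich elements in the 3′ ends of mRNAs. Once bound, they recruit the CCR4-NOT complex, which shortens the poly(A) tail, and decapping and exonuclease machinery then degrades the message. Zfp36 (TTP itself) is an immediate early gene best known in macrophages for limiting TNF mRNA, the p38 and MK2 kinases inactivate the proteins through phosphorylation and 14-3-3 binding, and Zfp36l1 and Zfp36l2 are also known for roles in lymphocyte development.

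All 3 genes lie on the minus strand of their chromosomes in mm10. Zfp36 (ENSMUSG00000044786.6) spans 28376784 to 28380253 on chromosome 7 and has 2 transcripts, whose TSSs fall in 2 adjacent bins, 28375001 to 28380000 and 28380001 to 28385000. Zfp36l1 (ENSMUSG00000021127.7) spans 80107754 to 80113013 on chromosome 12, and the starts of its 4 transcripts share the bin 80110001 to 80115000. Zfp36l2 (ENSMUSG00000045817.8) spans 84183931 to 84187947 on chromosome 17 and has 1 transcript, which starts in the bin 84185001 to 84190000. No other protein-coding gene starts in these 4 bins.

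Promoter sequence was taken from RefSeq on GRCm38.p6, the same assembly as mm10, for Zfp36 and Zfp36l1, so 2 of the 3 members matched. The 250 bases before the RefSeq start of Zfp36l1, chr12:80113014-80113263 on the minus strand, are shown because this promoter had by far the most interactions of the family. The capitals mark a match to the AP-1 motif, TGANTCA, 129 bases before the start, and a match to TATAAA, 29 bases before it.

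Zfp36l1 promoter: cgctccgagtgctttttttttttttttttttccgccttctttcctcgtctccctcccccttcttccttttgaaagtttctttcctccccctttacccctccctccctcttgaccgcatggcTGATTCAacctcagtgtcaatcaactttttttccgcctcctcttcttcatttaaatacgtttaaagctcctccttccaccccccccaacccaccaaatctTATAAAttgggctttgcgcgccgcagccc

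The RefSeq start of Zfp36, at position 28379228, lies within the first exon of the longer transcript, and only 2 stretches of 30 bases from its window are shown, for their motif matches. In the upper line the capitals mark a match to the EGR motif, GCGNGGGCG, which begins 105 bases before the start (chr7:28379314-28379343, minus strand). In the lower line they mark a match to the KLF/SP motif, GGGCGG on the other strand, 63 bases before the start, which runs into a match to the CArG box of serum response factor (SRF), the factor of immediate early genes (chr7:28379269-28379298, minus strand).

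Zfp36, EGR: gagctacgccGCGGGGGCGcgtcccggaag
Zfp36, KLF/SP and SRF: ccccaggCCGCCCCATAAAAGGagaaagct

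A motif match is a description of the letters and not evidence of a bound site. Both strands were searched, and the TATAAA search was added after the sequence had been seen. Of 32851 RefSeq promoters of the same 250 bases, 6.75% held an AP-1 match, 12.4% TATAAA, 4.70% an EGR match, 32.7% a KLF/SP match and 1.47% a CArG match. Neither member had the letters of PU.1 (GAGGAAG), C/EBP (TTGCNNAA), STAT6 (TTC and GAA spaced by 4 bases), NF-kB (GGANTTTCC) or CTCF (CCANNAG, 2 further bases and GGC) in this window. GC content was 64.8% for Zfp36 and 48.4% for Zfp36l1, beside a mean of 53.2% over all these promoters, and the windows held 18 and 10 CG dinucleotides against a mean of 9.86.

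All 3 members had at least 1 interaction, as did 63.2% of the 20720 genes, so that count alone says little about the family. The number per promoter set them far apart. Zfp36l1 ranked 51st, with 50 genes above it, Zfp36 ranked 4199th and Zfp36l2 ranked 10941st, with tied genes given the same rank, beside a median of 2 interactions over all genes. A gene with few or no listed interactions may have contacts below the limits of the call, and a bin without a peak of the mark enters the list only opposite a bin that has one, so the list describes mark and contact together.

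**Figure D1:**
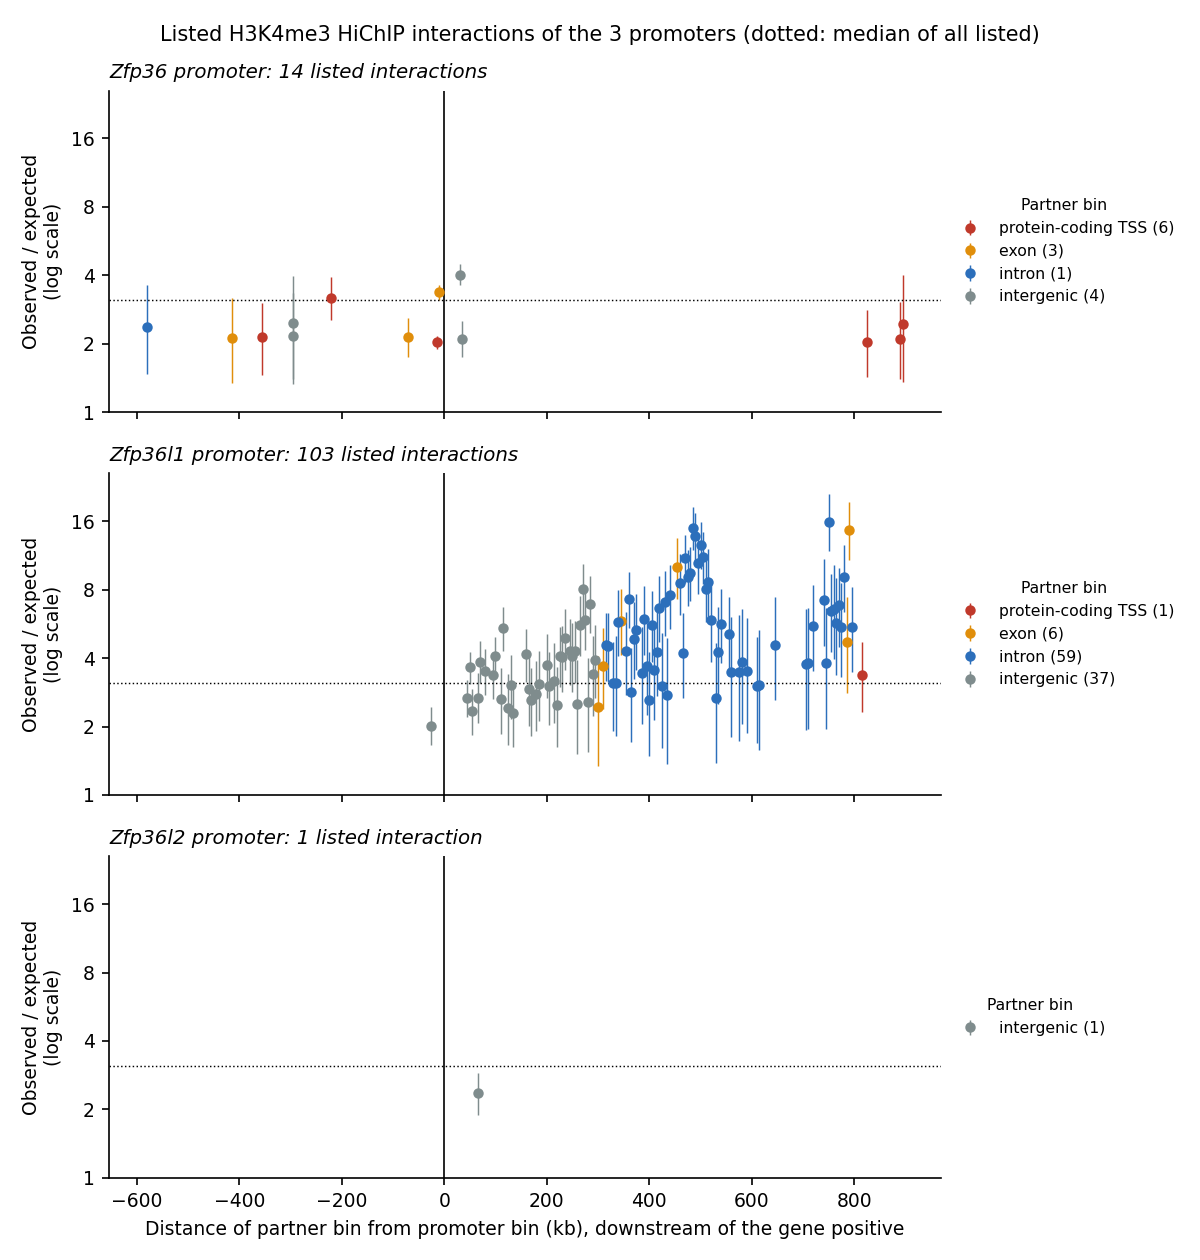
Ratio of observed to expected paired reads (log scale) against the distance of the partner bin from the promoter bin in kb, downstream of the gene positive, for each listed interaction of the 3 promoters. Bars are 95% Poisson intervals of the observed count, colours give the annotation of the partner bin and the dotted line is the median of all listed interactions, 3.11. Zfp36l1 partners lie almost wholly downstream and climb to ratios of 16.0, whereas Zfp36 partners lie on both sides and 11 of 14 sit below the dotted line.

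The interactions of Zfp36l1 ran in 1 direction. Of 103, 102 lay downstream of the gene, at 45 to 815 kb, and 1 lay upstream, at 25 kb (0.971% upstream, 95% Wilson interval 0.172 to 5.30). Zfp36 had 9 upstream and 5 downstream partners (64.3% upstream, 38.8 to 83.7). Such intervals reflect counting error alone, and adjacent bin pairs can share fragments and are not independent. The median distance was 390 kb for Zfp36l1 and 295 kb for Zfp36.

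The downstream span of Zfp36l1 holds Rad51b, a long gene for a protein of homologous recombination, which runs from 79297282 to 79814690 on the plus strand. Of the 103 interactions, 66 (64.1%) reached bins of Rad51b, at 300 to 815 kb. By annotation 59 partner bins were intronic, 6 exonic and 37 intergenic, and 1 held a TSS. That bin, 79295001 to 79300000, holds the starts of both Rad51b and Zfyve26, which encodes spastizin, a protein of lysosome reformation, and it had 33 observed paired reads against 9.80 expected. Its ratio of 3.37 (95% Poisson interval 2.32 to 4.73) was below the Zfp36l1 median of 4.21, so the only protein-coding promoter it was listed with was not its strongest partner.

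The ratio of observed to expected climbed and fell along this span. Between 0 and 100 kb downstream the median ratio was 3.45 over 8 bins, and between 100 and 200 kb it was 2.93 over 11 bins. Between 400 and 500 kb it was 8.04 over 18 bins. Between 600 and 700 kb only 3 bins were listed, with a median of 3.04, and between 700 and 800 kb there were 15, with a median of 5.70. Partner bins thus formed a broad group and a far group with a sparse stretch between them. The median ratio of all listed interactions also rises with distance, from 2.42 under 50 kb to 4.15 at 400 kb and over.

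The longest unbroken run was 14 bins (70 kb), from 79590001 to 79660000, at 455 to 520 kb from the promoter bin and inside Rad51b. It held 712 observed paired reads against 71.6 expected, and single bins had between 23 and 88 observed. Their ratios went from 4.21 to 15.0 with a median of 9.74. Of the 9 Zfp36l1 interactions with a ratio of 10 or more, 7 lay in this run, and the others were at 750 and 790 kb.

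The bin at 750 kb, 79360001 to 79365000 in an intron of Rad51b, had the highest ratio of the family, with 51 observed paired reads against 3.19 expected, a ratio of 16.0 (11.9 to 21.0). The bin at 485 kb, 79625001 to 79630000, had 88 against 5.88, a ratio of 15.0 (12.0 to 18.4), and the bin at 790 kb, 79320001 to 79325000, which overlaps a Rad51b exon, had 48 against 3.28, a ratio of 14.6 (10.8 to 19.4). The intervals of these 3 overlap, so their order is not resolved. All 3 were above 99% of listed interactions at 400 kb and over, with percentiles of 99.8, 99.7 and 99.7 in that distance class.

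Sequence around motif matches in the first 2 of these bins is shown with the match in capitals, on the plus strand of GRCm38. Their ratios were the highest, though not resolved from the third. Their C/EBP matches and the motif matches in the bin at 790 kb are not shown. AP-1 and PU.1, whose motifs were searched, are factors of macrophage enhancers, PU.1 being encoded by Spi1. The bin at 750 kb held 1 AP-1 match (chr12:79362842-79362888) and 1 PU.1 match, read as CTTCCTC on this strand (chr12:79363353-79363399).

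750 kb, AP-1: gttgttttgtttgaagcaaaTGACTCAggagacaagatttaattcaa
750 kb, PU.1: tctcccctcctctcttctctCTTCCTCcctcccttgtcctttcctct

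The bin at 485 kb held 4 AP-1 matches, of which the first and the last are shown (chr12:79626554-79626600 and chr12:79628529-79628575), and 1 PU.1 match (chr12:79629272-79629318).

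485 kb, AP-1 first: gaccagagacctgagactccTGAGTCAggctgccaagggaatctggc
485 kb, AP-1 last: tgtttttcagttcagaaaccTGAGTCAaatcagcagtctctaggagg
485 kb, PU.1: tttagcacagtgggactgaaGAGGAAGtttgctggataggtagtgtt

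Such short motifs are common in 5 kb. Among the 103 partner bins of Zfp36l1, 92.2% held a PU.1 match, beside 80.6% of the mirrored bins, which lie at the same distances on the other side of the promoter, and 77.4% of all 70079 bins of chromosomes 7, 12 and 17. For AP-1 the shares were 82.5%, 80.6% and 77.8%, and for STAT6, the factor activated by IL-4, 83.5%, 79.6% and 77.3%. For C/EBP they were 90.3%, 85.4% and 89.8%. CTCF matches were in 31.1% of partner bins, 40.8% of mirrored bins and 24.0% of all bins. Base composition differed too, with a median GC content of 43.8% in partner and 45.5% in mirrored bins, and its part in these shares was not tested.

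The partners with the most reads were not those with the highest ratios. The highest observed counts were close to the gene, 153 at 50 kb (80060001 to 80065000), 110 at 45 kb (80065001 to 80070000) and 109 at the single upstream partner, 25 kb away (80135001 to 80140000). All 3 were intergenic by protein-coding annotation, and their ratios were 3.64, 2.67 and 2.02. Over all 103, observed counts were 11 to 153, expected counts 2.88 to 53.9 and ratios 2.02 to 16.0.

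**Figure D2:**
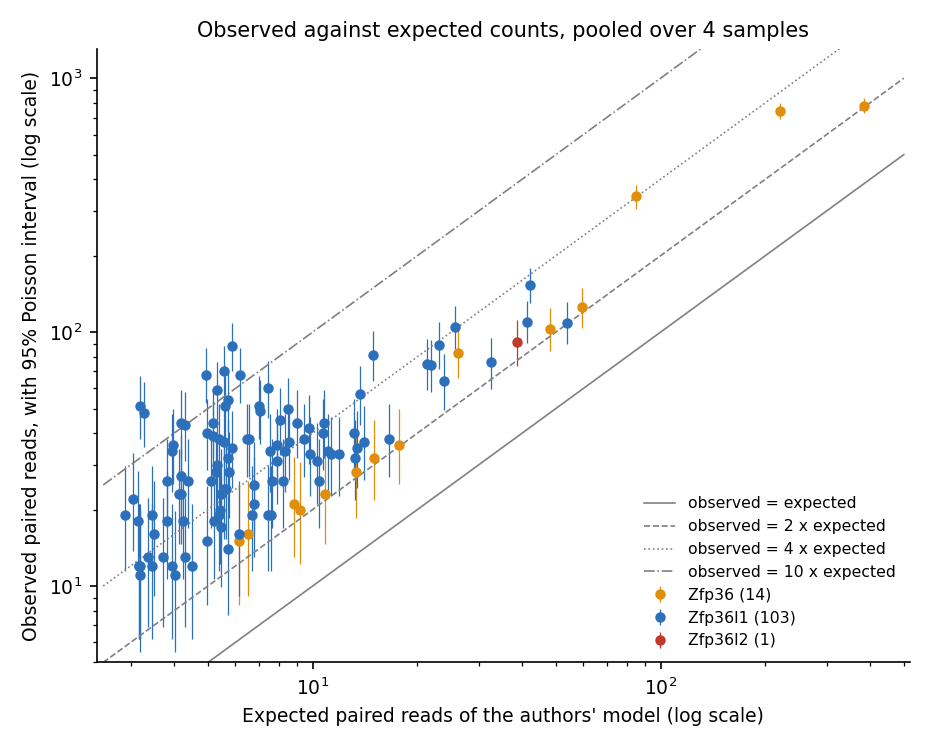
Observed against expected paired reads of each listed interaction, both on log scales, pooled over the 4 samples, with 95% Poisson intervals and lines at 1, 2, 4 and 10 times the expected count. Zfp36l1 points rise to over 10 times the expectation where under 10 reads were expected, while Zfp36 holds the 3 highest observed counts of the family, 780, 742 and 342, at ratios of 2.03, 3.37 and 4.03.

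Ratios in this list rise with distance, so each was placed among all listed interactions of its distance class. The median percentile was 73.9 for Zfp36l1, and 26 of its 103 interactions were in the top 10% of their class, 12 of them at 450 to 550 kb. For Zfp36 the median percentile was 3.80, and 1 of 14 was in the top 10%. At 400 kb and over, where all listed interactions had a median ratio of 4.15, the 50 of Zfp36l1 had a median of 5.62 and the 5 of Zfp36 a median of 2.12. At 50 to 100 kb the median was 2.62 for all, 3.45 for the 6 of Zfp36l1, and the only values of Zfp36 and Zfp36l2 were 2.14 and 2.35. Expected counts differed too, with medians of 4.26 for Zfp36l1 and 10.8 for Zfp36 in the farthest class.

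The partner bins of Zfp36l1 had fewer listed interactions than those of Zfp36. Taken over interactions, the median at the partner was 3 for Zfp36l1 and 14.5 for Zfp36, whose Sertad1 bin entered with 2 interactions. Over all 129619 bins in the list the median was 2. The bin of the Rad51b and Zfyve26 starts stood out with 67. Counted bin by bin, the 103 partner bins of Zfp36l1 had 378 listed interactions. The other bin was the Zfp36l1 promoter bin in 103 and lay within 15 kb of it in 95. It was another protein-coding promoter bin in 31 and some other bin in 149. An interaction joining 2 of the 103 partner bins is counted at each, and may be classed differently there. The number of separate interactions is therefore below 378. For 36 of the 103 bins (35.0%, 26.4 to 44.6), the promoter bin or those beside it were the only contacts listed. None of the 13 partner bins of Zfp36 was of this kind (0%, 0 to 22.8). The partner bins of Zfp36l1 were also seldom listed with each other, at 44 of the 5177 pairs at least 10 kb apart (0.850%), against 7 of 75 (9.33%) for Zfp36. A pair in which neither bin holds a peak was not open to a call, so these shares rest on the mark as well as on contact. The 75 pairs of Zfp36 include some over 1000 kb apart, beyond the reach of the list, so its share is a low estimate.

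The bin just upstream of the Zfp36l1 promoter bin, 80115001 to 80120000, had almost as many interactions, 97, of which 95 were downstream. It shared 70 partner bins with the promoter bin, 68.0% of the latter's and 72.2% of its own. Over the shared bins the median ratio was 5.20 from the promoter bin and 4.69 from the bin beside it, and the promoter bin had the higher ratio in 44 of 70. The highest ratio of the upstream bin, 17.3 (13.6 to 21.8, 73 observed against 4.21 expected), was at 79355001 to 79360000, which adjoins the 750-kb partner of the promoter bin. The bin on the other side, 80105001 to 80110000, which holds the 3′ part of Zfp36l1, had 31 interactions, 22 of them shared, and the bins beyond on either side had 1 each. Reads of 1 contact can fall on both sides of a bin edge, and the parts of edge and second contact cannot be told apart at this bin size.

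**Figure D3:**
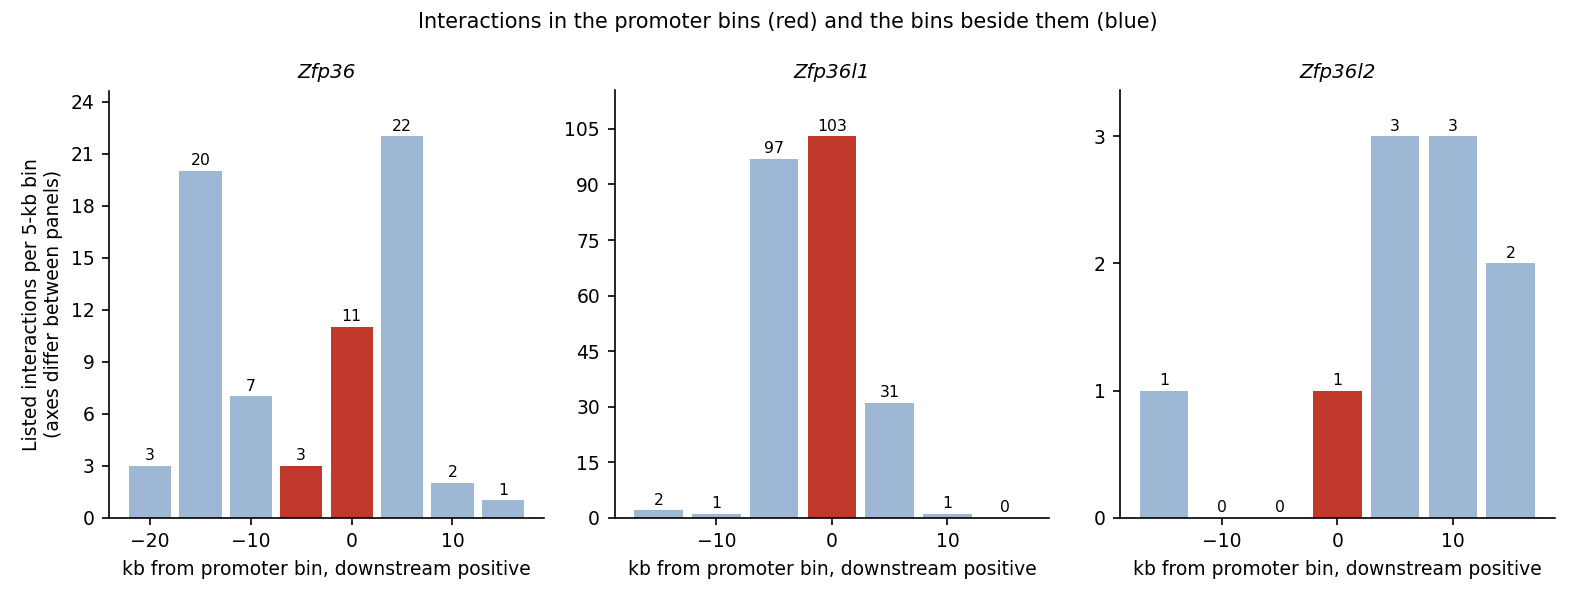
Number of listed interactions of each 5-kb bin at and around the promoters, with the promoter bins in red and bins up to 15 kb away in blue, the downstream direction of the gene to the right and a separate vertical axis for each gene. Zfp36l1 has 103 interactions in its promoter bin and 97 and 31 in the adjacent bins, while the 2 promoter bins of Zfp36, with 11 and 3, lie between bins with 22 and 7.

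Antisense or divergent non-coding genes start in or beside every promoter bin. In the Zfp36 bin 28375001 to 28380000, Gm44710 starts on the plus strand, 1273 bp inside the outermost Zfp36 start, and AC132455.1 starts 2191 bp inside that of Zfp36l2. At Zfp36l1, the lincRNA 1300014J16Rik starts 2850 bp upstream, in the bin with 97 interactions, and Gm26669 starts on the plus strand at 80108034, in the bin with 31. Contacts of the coding and the non-coding start cannot be told apart where both share a bin. Of the 37 intergenic partners of Zfp36l1, 10 overlapped a non-coding gene, 7 of them the lincRNA Gm36660 (80018415 to 80081434) and 2 the lincRNA 9430078K24Rik (79917019 to 79936264).

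Zfp36 had 14 interactions with 13 partner bins. Of the 14, 6 (42.9%, 21.4 to 67.4) had a TSS in the partner bin, 3 an exon, 1 an intron, and 4 were intergenic. The bin 28375001 to 28380000, which holds the RefSeq start and the inner GENCODE start, had 11 of them, and the bin of the outermost TSS had 3, with 15, 16 and 23 observed paired reads.

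The nearest partners carried the most reads. The bin 28390001 to 28395000, 15 kb upstream, holds the starts of Med29, a subunit of Mediator, and Paf1, a subunit of the elongation complex of that name, and had 780 observed paired reads against 385 expected, a ratio of 2.03 (1.89 to 2.17). The bin between it and Zfp36, over an exon of Med29 at 10 kb, had 742 against 220, a ratio of 3.37 (3.13 to 3.62), above 89.8% of listed interactions under 50 kb. The intervals of the 2 ratios do not overlap, so the promoter bin of Med29 and Paf1 had the lower ratio of the pair despite the higher count.

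The highest ratio of Zfp36 was 30 kb downstream, in the intergenic bin 28345001 to 28350000, with 342 observed paired reads against 84.8 expected, a ratio of 4.03 (3.62 to 4.48), above 96.6% of its class. The bin beyond it, 35 kb away, had 125 and a ratio of 2.11. The bin at 30 kb adjoins the promoter bin of Rps16, a ribosomal protein gene, and held 1 PU.1 match (chr7:28349476-28349522) and 1 CTCF match on the minus strand (chr7:28348769-28348820), shown on the plus strand for comparison with the Zfp36l1 partners.

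30 kb, PU.1: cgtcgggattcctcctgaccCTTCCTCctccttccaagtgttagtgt
30 kb, CTCF: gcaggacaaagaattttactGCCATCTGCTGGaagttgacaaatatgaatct

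This bin held no AP-1 match. Among the 13 partner bins of Zfp36, 10 (76.9%) held an AP-1 match, beside 6 mirrored bins and 77.8% of all bins of the 3 chromosomes, so the partner share was near that of all bins. A KLF/SP match was in 11 partner bins (84.6%), 7 mirrored bins and 34.2% of all bins, and a STAT6 match in 6 (46.2%), 8 and 77.3%. These counts over 13 bins are descriptions with no test.

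Farther promoters listed with Zfp36 had ratios below the medians of their distance classes. The highest was at the shared start region of Pak4, a p21-activated kinase, and Samd4b, a Smaug-type RNA-binding protein and so itself a regulator of mRNA. It lay 220 kb upstream with 83 observed paired reads against 26.1 expected, a ratio of 3.18 (2.53 to 3.94). This was above 42.6% of listed interactions at 200 to 400 kb, whose median was 3.37. Fbxo17, an F-box protein gene, was at 355 kb with 32 and a ratio of 2.13. The bin of Pld3, a lysosomal exonuclease, and 2310022A10Rik was 825 kb downstream with 36 and a ratio of 2.04, and Sertad1, a regulator of the cell cycle, was listed with both Zfp36 bins, at 890 and 895 kb, with 28 and 15 reads and ratios of 2.10 and 2.43. Apart from the bin of Pak4 and Samd4b, the percentiles of these promoters were 0.0776 (Pld3) to 2.61 (Fbxo17). Those far contacts were thus only just past the limit of the list. The remaining partners overlapped Gmfg and Samd4b (70 kb), Rinl (415 kb) and Actn4 (580 kb) or were intergenic, with ratios of 2.12 to 2.46.

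Genes around Zfp36 had partner bins in common with it. Zfp780b had 6 of the 13 (46.2%, and 9.38% of its own 64), and Gmfg, Samd4b, Nfkbib and Sirt2 had 5 each (38.5%, and 16.1% of its own for Gmfg and 13.9% for Samd4b). Nfkbib and Sirt2 share their promoter bin, and Gmfg and Samd4b have a promoter bin in common, so these likenesses are not separate. Shared bins over the union were 0.0845 for Zfp780b, 0.128 for Gmfg and 0.114 for Samd4b, and by this measure Actn4 (0.136) and Plekhg2 (0.129) came first. For Zfp36l1 the most alike were Rad51b and Zfyve26, which share a promoter bin and had 23 partner bins in common with it (22.3%, and 34.3% of their 67, 0.156 of the union), followed at a distance by Erh and Slc39a9 with 3. These likenesses are computed over bins of 1 pooled list.

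Zfp36l2 had 1 interaction, 65 kb downstream, with the intergenic bin 84120001 to 84125000. It had 91 observed paired reads (95% Poisson interval 73.3 to 112) against 38.7 expected, a ratio of 2.35 (1.89 to 2.89), and an adjusted p-value of the authors of 1.27e-11. The partner bin had 11 listed interactions, of which 3 were with bins within 15 kb downstream of the promoter bin. The strongest by count joined it to 84180001 to 84185000, the 3′ end of Zfp36l2, with 176 paired reads and a ratio of 3.69. The contact was thus listed along the gene and just beyond it rather than at its promoter bin alone. None of its other partners was a protein-coding promoter bin, and the 2 bins upstream of the Zfp36l2 promoter bin had no listed interaction.

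The 3 promoters also differ in their surroundings. Neighbours were counted by their outermost TSS. By this rule 4 other protein-coding genes lay within 500 kb of Zfp36l1, all upstream. Their promoters had 0 (Exd2 and Galnt16), 2 (Actn1) and 8 (Dcaf5) interactions. The body of Rad51b comes to 300 kb downstream, but its TSS lies farther than 500 kb and was not counted. Among the 2072 genes with the fewest neighbours, the lowest 10% by that number, Zfp36l1 ranked 24th, beside a median of 1. Zfp36 had 39 neighbours with a median of 8 and a range of 0 to 70. Of these, 19 had more interactions and 20 fewer, so Zfp36 sat in the middle of its region. The nearest, Plekhg2, a guanine nucleotide exchange factor gene 7.76 kb away, had 22. Around Zfp36l2, 6 of 7 neighbours had 0 and Thada, 278 kb upstream, had 31.

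**Figure D4:**
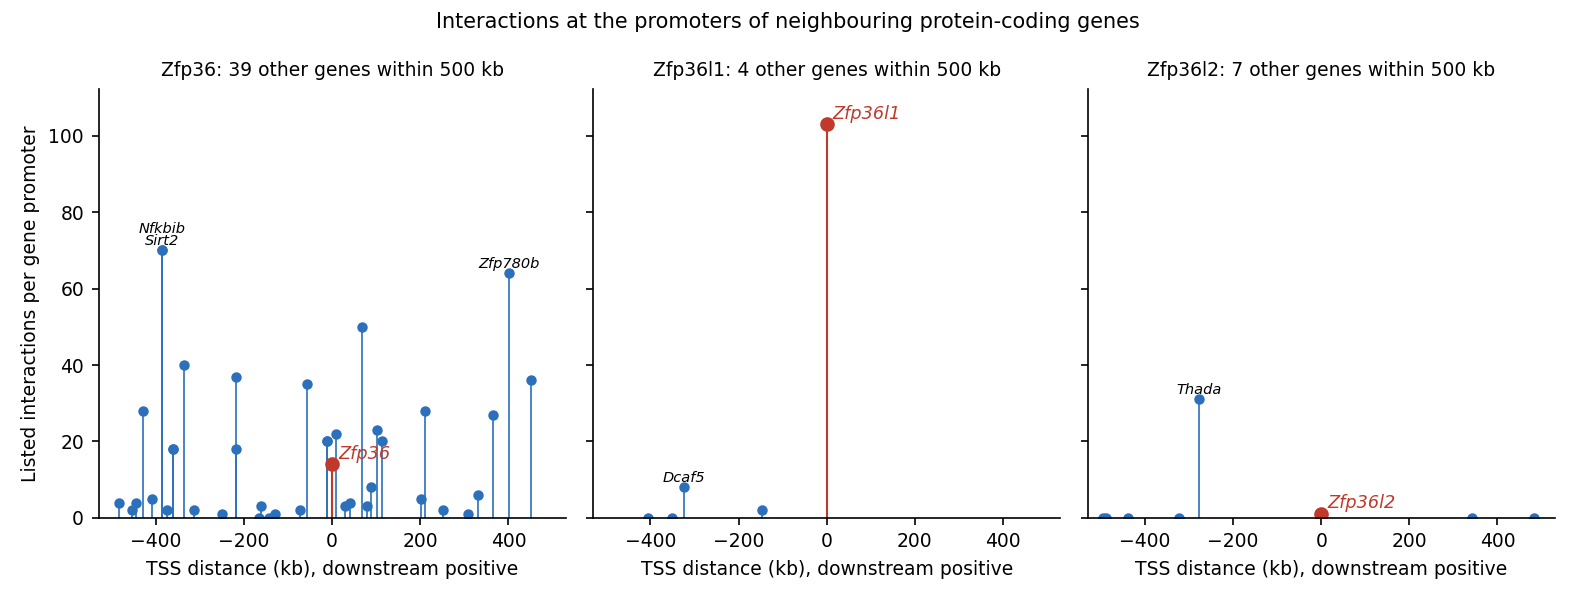
Number of listed interactions at the promoter of every protein-coding gene with its outermost TSS within 500 kb (vertical axis). The horizontal axis is the distance of that TSS from that of the member in kb, downstream positive, with the member in red. Zfp36l1 stands alone at 103 with no neighbour above 8, Zfp36 at 14 lies amid neighbours with up to 70, and Zfp36l2 at 1 lies below Thada at 31.

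The genes that work with the TTP family were also counted. The list of other RNA-binding proteins of mRNA stability had a median of 20 over 13 genes, among them Elavl1 (44, the HuR protein that stabilises AU-rich messages) and Khsrp (39, which destabilises them). Of the deadenylation machinery, 18 of 19 genes had at least 1, beside 63.2% of all 20720 genes. The list median was 6, led by the CCR4-NOT subunits Cnot6l (41), Cnot7 (36) and Cnot11 (36), while Cnot2 had 0. Decapping and 5′ decay had a median of 10 over 17 genes, led by Lsm3 (37), Dcp1a (34) and Lsm6 (29), and the exosome a median of 8 over 14, led by Exosc5 (34), Exosc7 (30) and Exosc1 (22). In each of the last 2 lists every gene had at least 1, beside the same 63.2% of all genes. Zfp36, with 14, was exceeded by 8 of the 13 other RNA-binding proteins and by 6 of the 19 deadenylation genes, and Zfp36l1 by none in this count of bin pairs.

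Upstream of the family, the 16 genes of the p38 route and the 14-3-3 proteins all had at least 1, beside 63.2% of all genes. Their list median was 19.5. Ywhaz, a 14-3-3 protein, had 57, Mapkapk2, the MK2 kinase that phosphorylates TTP, had 43 and Mapk14 (p38α) 35. Downstream, the 14 genes whose mRNAs carry AU-rich elements bound by the family had a median of 3, close to the 2 of all genes. Vegfa stood apart with 80, Ier3 had 10 and Ccl3 8, Tnf had 5, and Ptgs2 had 0. The counts of Elavl1, Cnot7, Lsm3, Exosc5, Exosc7, Exosc1, Ier3 and Ccl3 are those of promoter bins shared with another gene, so they cannot be ascribed to the named gene alone. The order against the lists holds for bin pairs only. When clusters of bin pairs were counted instead, Zfp36l1 had 5, below the medians of the p38 route (7) and the other RNA-binding proteins (6) and equal to that of decapping (5).

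**Figure D5:**
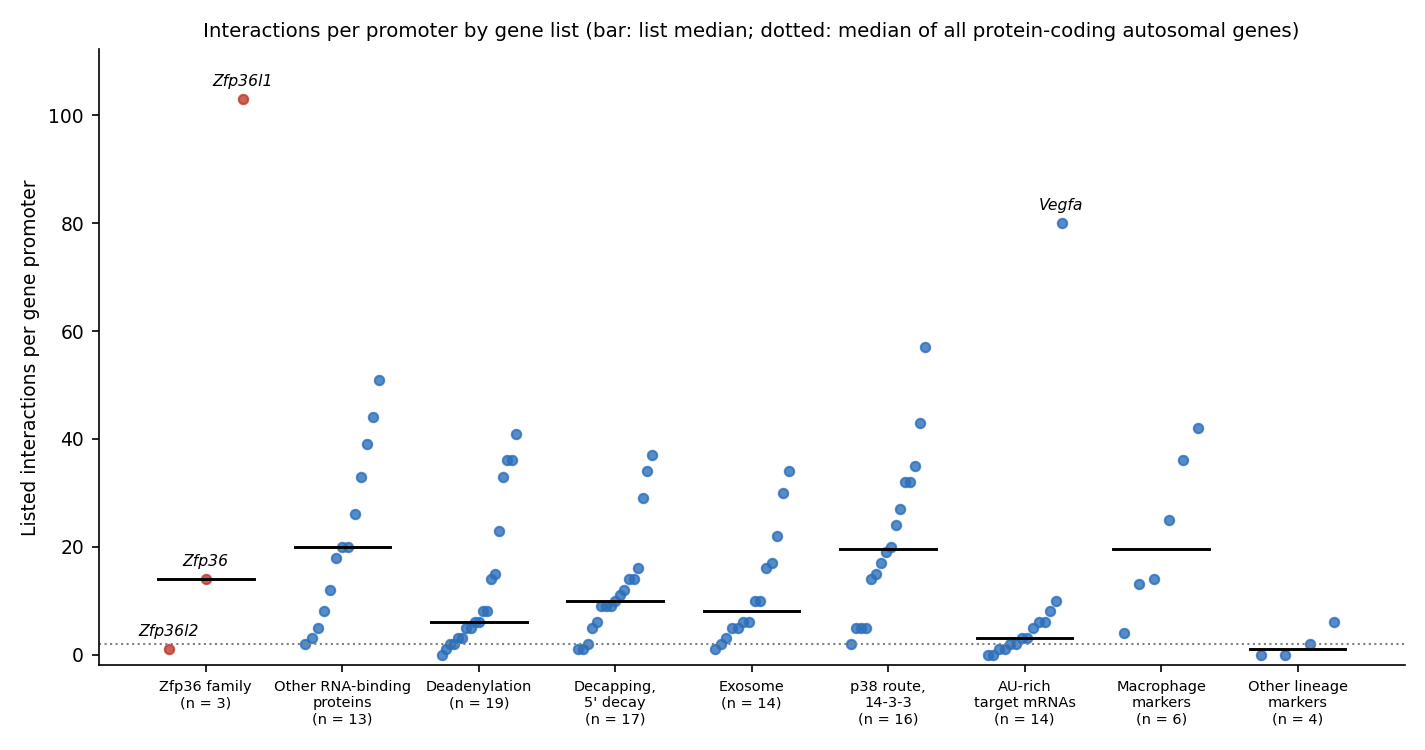
Number of listed interactions at each gene's promoter (vertical axis) by gene list, 1 point for each gene, with the list median as a bar and the median of all 20720 genes, 2, as a dotted line. Zfp36l1 (103) lies above every gene of the pathway lists in this count of bin pairs, and Vegfa (80) is the highest of them.

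All 6 macrophage markers had at least 1 interaction, as did 63.2% of all genes. Mertk had 42, Spi1 36, Adgre1 25, Csf1r 14, Lyz2 13 and Cd68 4. Among markers of other lineages, Cd3e and Alb had 0 and Pax6 had 6, more than Cd68. These counts therefore do not settle the labelled cell type. Since the cells were pooled, the share of cells with a contact and its frequency in each cell cannot be told apart.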

How the data were processed

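H3K4me3 HiChIP was measured in 4 BMDM samples, grouped by their titles into 2 basal and 2 IL-4 (24 h). By the study's methods, the authors mapped reads, called H3K4me3 ChIP-seq peaks as anchors and ran MAPS at 5000-bp resolution, with Bowtie2, bedtools and the build mm10 listed in the submitters' processing notes. For bin pairs with a peak in 1 or both bins, MAPS models the count from distance, restriction sites, GC content, mappability and enrichment. The deposited list, merged over the 4 samples, gives the observed count and the expected (estimated) count of each bin pair, both by the authors and used as deposited. It also gives a false discovery rate, an adjusted p-value of the authors, below 0.01 throughout. Ratios of observed to expected were computed here and were at least 2 in the list. The deposited cluster score on a −log10 scale was not used, nor were cluster type and summit. The list covers 19 autosomes and distances of 10 to 1000 kb.

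Genes were those of GENCODE M21 (basic set), with positions counted from 1 and distances between bin starts. RefSeq promoter windows and GRCm38.p6 sequence are of the same build as mm10, and each printed promoter was checked against the genome sequence. Intervals are exact Poisson for counts and Wilson for shares, at 95%, and cover counting error only. PCR copies cannot be told from separate molecules in this list. Distance classes had limits at 50, 100, 200 and 400 kb, and a percentile is the share of listed interactions in the same class with a lower ratio. A mirrored bin was as far from the promoter bin as the partner, in the opposite direction. The counting was tested on simulated data, in which 200 genes of 20720 had planted interactions and 100% were counted exactly. These genes each had a single promoter bin shared with no other gene, and no planted partner was a promoter bin. The check therefore did not cover genes with more promoter bins, such as Zfp36, shared promoter bins or contacts between promoters.

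The members, gene lists, motifs and rules were chosen with earlier results of these data known. Genes named were the members, genes with a promoter in a partner bin, for each member the top 3 interactions by count and the top 3 by ratio, the 3 genes with the most partner bins in common, and for each list the 3 genes with the most interactions and those at 0. Some genes that this rule or the marker lists select are not reported here. Other genes, such as neighbours, genes overlapped by partners, Tnf and non-coding genes, were named after their values were seen, as were the bins beside the promoters. Alternatives comprised a false discovery rate under 1e-06, ratios of at least 4, counts of at least 10, no interactions called as singletons, bins at least 50 kb apart, 1 interaction per cluster, a TSS within 2500 bp of a bin and the outermost TSS alone. Versions were Python 3.11.15, pandas 2.3.3, numpy 2.4.6, matplotlib 3.10.9 and scipy 1.17.1.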

Additional observations from a re-analysis of the deposited data

How the results depend on the processing

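The order of the members, Zfp36l1 above Zfp36 above Zfp36l2, held under every alternative but 1, in which clusters were counted in place of bin pairs. Zfp36 then had 8 and Zfp36l1 5, since bin pairs of Zfp36l1 join into few large clusters. With ratios of at least 4, Zfp36 kept 1 of 14 interactions, Zfp36l1 57 of 103 and Zfp36l2 0. With a false discovery rate under 1e-06 Zfp36 had 6, and with its outermost TSS alone it had 3. With a TSS in or within 2500 bp of the bin, Zfp36l1 rose to 200, by construction, since the adjacent bin was added. No paired analysis was possible because the list is pooled over all 4 samples, and for the same reason leaving out each replicate was not run. Of the other values recomputed, 16 moved, all of them medians of a gene list or of all genes, and 27 did not. Many of the 27 could not move, so they are no measure of robustness. No member interaction had fewer than 11 observed paired reads, so the limit of 10 removed none. The margin of 2500 bp added no interaction at Zfp36 or Zfp36l2. With ratios of at least 4 the 6 pathway medians fell to between 1 and 2.5 and that of all genes to 0. With a TSS within 2500 bp, deadenylation rose from 6 to 15, decapping from 10 to 19, the exosome from 8 to 21 and all genes from 2 to 4. By clusters, decapping had 5, the exosome 4.5, other RNA-binding proteins 6, the p38 route 7 and AU-rich targets 1.5. The depth behind the list is unknown, so a promoter with few interactions is not shown to lack contacts.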
